A study of Rattus norvegicus with 4 samples.

Results

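The genes for the initiation and elongation factors of cytosolic protein synthesis were followed in rat kidney. They were taken as every probe set of the array whose platform gene symbol begins with Eif or Eef and a digit. A probe set is a group of short oligonucleotides that reads 1 transcript. This gave 70 of 15923 probe sets. Of these, 66 carried 1 symbol, for 56 genes, and 4 carried several symbols and were not assigned to a gene. The 4 arrays held kidney RNA of male rats aged 9 weeks, 1 array for each of SHR after prenatal nicotine, SHR after prenatal saline, BN after prenatal nicotine and BN after prenatal saline. SHR is the spontaneously hypertensive rat, an inbred strain with inherited high blood pressure, and BN is the inbred Brown Norway rat. The saline rats are the treatment's controls. Each array carried 1 pool of RNA, from 13 rats for SHR nicotine and 12 rats for each of the other groups, so the spread between animals cannot be seen.

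Translation begins when eIF2, bound to GTP and the initiator tRNA, joins the small ribosomal subunit with the help of eIF1, eIF1A, eIF3 and eIF5. The eIF4 factors bring in the mRNA by its cap and unwind its leader, and 4E-binding proteins block that step by holding eIF4E. Kinases that phosphorylate eIF2 lower its supply by trapping its exchange factor, eIF2B. Once the subunits have joined, eEF1A carries each aminoacyl-tRNA to the ribosome, the eEF1B subunits reload eEF1A with GTP, and eEF2 moves the ribosome along. Kidney tubule cells, which spend much energy on transport, run this machinery all the time.

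Signals are linear MAS5 intensities on an arbitrary scale, so levels were compared between arrays for 1 probe set and never between probe sets. A probe set was called measured if it reached 89.0 on an array in the comparison, which is 2 times the floor of 44.5 to which lower values were raised. On at least 1 array, 57 of the 70 probe sets were measured, for 48 of the 56 genes. The array read kidney: the brighter probe set of the proximal tubule marker Slc34a1 had signals of 3872 to 5024 and that of Lrp2 signals of 2172 to 2728, and the markers of adrenal cortex, skeletal muscle and neurons on the array all stayed below 89.0. In whole tissue, fewer cells of a type and less RNA per cell cannot be told apart.

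The strains were compared first, with SHR set against BN and averaged over both treatments. Factors of every stage were present in both strains, and most differed little. Of 54 probe sets tested, 8 were lower in SHR and 0 were higher at an adjusted p under 0.05 (limma, Benjamini-Hochberg over all 7037 probe sets tested). The 8 are 14.8% of the members tested, against 18.1% of all probe sets tested, and the lower calls compare with 9.42% lower and 8.67% higher among all. The order of the members' share and the share of all calls turned round with the floor at the 20th percentile (8 of 65 members against 9.98%), with no filter (8 of 63 against 9.76%) and without the BN saline array (4 of 55 against 5.55%). At an unadjusted p under 0.05 there were 16 members, against 30.5% of all probe sets. In 44 of the 54 the strains were within 1.2-fold of each other. The median log2 ratio of the members was -0.062, against 0.0024 over all probe sets tested, and 35 of 54 were below zero, against 49.5% of all. Among probe sets with a mean signal of at least 500, the medians were -0.075 for 25 members and -0.020 for all 1322. The ratios of the members had an SD of 0.22 on the log2 scale, against 0.35 for all. Without the intensity trend, only Eif4ebp3 and Eif3h of the 8 remained past the threshold (limma adjusted p of the others from 0.0645 to 0.163). Both SHR arrays lay below both BN arrays for 22 members, 40.7%, where 28.9% of all probe sets did, and above them for 14 members, 25.9%, where 30.8% of all did.

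**Figure D1:**
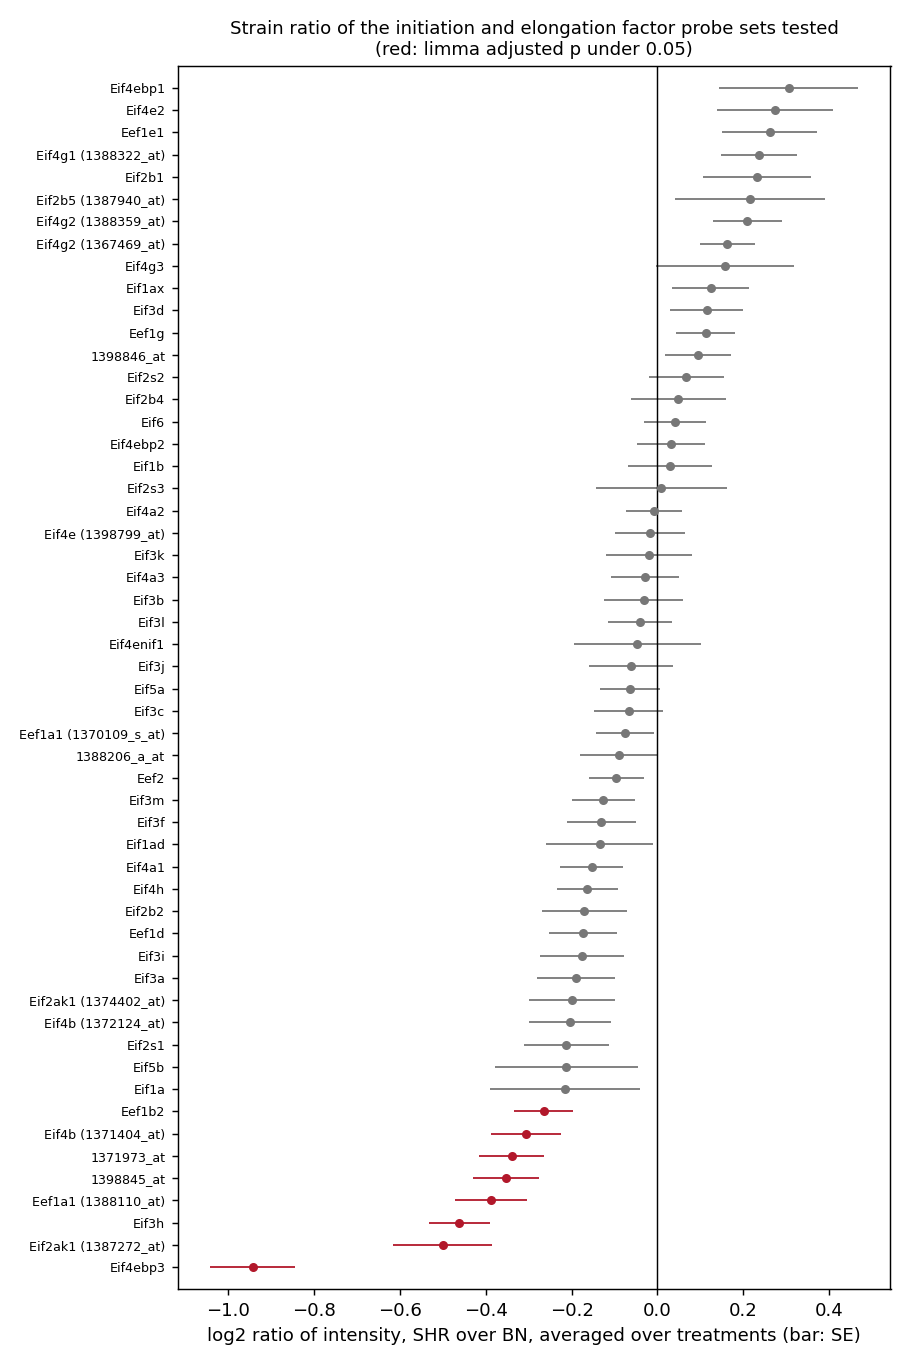
Log2 ratio of signal, SHR over BN averaged over treatments, for the 54 factor probe sets tested, with bars of 1 SE from limma on 4 arrays; red points have an adjusted p under 0.05. Red points lie only at the left end, from -0.94 for Eif4ebp3 to -0.27 for Eef1b2.

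Set pool against pool, 3 of 56 measured members were at least 1.5-fold lower in SHR under nicotine and 0 higher, where 8.44% of all probe sets were apart (4.24% lower, 4.2% higher). They were Eif4ebp3, Eif2ak1 probe set 1387272_at and Eef1a1 probe set 1388110_at. The other probe sets of these genes did not reach that fold. Under nicotine the SHR over BN log2 ratio was -0.24 for Eif2ak1 probe set 1374402_at and 0.050 for Eef1a1 probe set 1370109_s_at. Under saline 2 of 56 were lower and 0 higher, Eif4ebp3 and a dim probe set of Eif4g1, where 8.12% of all were apart (3.95% lower, 4.17% higher). These pairs of pools have no replicates. The share of members past the fold in either direction was below that of all probe sets. For lower ratios alone, the members' share was above that of all under nicotine and below it under saline.

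The largest strain difference among the factors was in Eif4ebp3, which encodes 4E-BP3, one of the proteins that hold eIF4E away from eIF4G. Its signal was 197 on the SHR nicotine array and 198 on the SHR saline array, against 392 on the BN nicotine array and 368 on the BN saline array. Both SHR pools were about equal and well under both BN pools. The SHR level was 1.92-fold lower (log2 -0.94, SE 0.099, adjusted p = 1.61e-06 with limma). This call held in all 12 alternatives tried for it, with adjusted p from 1.24e-08 to 0.0128 in limma. Every alternative read the same probe set, the only probe set of Eif4ebp3 among the members, so no other reading of this gene was available. The other inhibitors of eIF4E did not pass. Eif4ebp1, the insulin-responsive 4E-BP, had 117 and 105 in SHR nicotine and saline, against 92.5 and 87.2 in BN nicotine and saline, with a log2 ratio of 0.31 (SE 0.16) and an adjusted p of 0.214 in limma. Eif4ebp2, its relative, had a log2 ratio of 0.032 (SE 0.080). Eif4enif1, whose product 4E-T carries eIF4E into the nucleus and to sites of mRNA storage, had -0.047 (SE 0.15). The 3 genes for 4E-BPs were thus read in opposite directions, and only Eif4ebp3 passed the test.

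Of the kinases that phosphorylate eIF2, Eif2ak1 alone was measured. It encodes HRI, which is released when heme is short. On probe set 1387272_at it had 187 and 201 in SHR nicotine and saline, against 303 and 249 in BN nicotine and saline. All SHR values lay below all BN values, and the SHR level was 1.41-fold lower (log2 -0.50, SE 0.12, adjusted p = 0.00487 with limma). The second Eif2ak1 probe set, 1374402_at, had 252 and 244 in SHR against 297 and 272 in BN, with a log2 ratio of -0.20 (SE 0.10) that did not pass (adjusted p = 0.190 with limma). Both probe sets were lower in SHR on every array, by unequal amounts. The call at 1387272_at was lost with quantile normalization (limma adjusted p = 0.0537) and without the SHR nicotine, the SHR saline or the BN nicotine array (limma adjusted p of 0.133, 0.0848 and 0.184). Eif2ak2, Eif2ak3 and Eif2ak4, which encode PKR, PERK and GCN2, stayed below 89.0 on all 4 arrays, so a strain difference in them was not detectable here. Their readings ran from 31.3 to 83.8.

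The phosphorylation target, the alpha subunit of eIF2 (Eif2s1), had 253 and 269 in SHR nicotine and saline, against 313 and 292 in BN nicotine and saline. Its log2 ratio of -0.21 (SE 0.10) did not pass, with an adjusted p of 0.161 in limma. The beta subunit gene Eif2s2 had a ratio of 0.068 and the gamma subunit gene Eif2s3 one of 0.0093. Among the 5 genes of the exchange factor eIF2B, 4 were tested and 0 passed in limma (0 also at an unadjusted p under 0.05), with Eif2b1 at 0.23 and Eif2b2 at -0.17 as the ends of the range and a smallest adjusted p of 0.228. The remaining gene, Eif2b3, was too dim for the strain test, at 81.2 and 82.1 in SHR nicotine and saline and at 93.8 and 83.3 in BN nicotine and saline. The other start-site factors with a single symbol ran from -0.22 for Eif1a to 0.12 for Eif1ax, paralogs that both encode eIF1A, and none passed in limma (0 of the 8 tested in this role with eIF2 included, 1 at an unadjusted p under 0.05). Eif2d, which can place tRNA in the ribosome without eIF2, was measured but not bright enough for the strain test.

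eIF3 is the large scaffold that binds the small subunit. Of its 11 single-symbol probe sets, 1 for each of 11 subunits, 10 had a log2 ratio below zero and 1 passed. Of all probe sets tested, 49.5% were below zero and 18.1% passed. Some of the 10 ratios were smaller than their SE, such as -0.019 (SE 0.10) for Eif3k. Subunits read on the same 4 arrays are not independent. Eif3h had 723 and 734 in SHR nicotine and saline, against 1020 and 986 in BN nicotine and saline, 1.38-fold lower in SHR (log2 -0.46, SE 0.072, limma adjusted p = 0.000139). The values within each strain were close and the strains did not overlap. This call held in all 12 alternatives, with limma adjusted p from 1.44e-05 to 0.0425. The other subunits ran from -0.19 for Eif3a to 0.12 for Eif3d, and the median of the 11 was -0.067. Eif3a, the largest subunit, had 334 and 315 in SHR against 390 and 352 in BN, and did not pass (adjusted p = 0.164 with limma). A further eIF3 probe set, 1371973_at, annotated to 2 eIF3 symbols and given below, was also lower in SHR, by 1.27-fold.

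Among the factors that bind the cap and unwind mRNA, 12 probe sets were tested and 1 passed, where 18.1% of all probe sets tested did. Eif4b encodes the helper of the helicase eIF4A, and its probe set 1371404_at had 516 and 460 in SHR nicotine and saline, against 600 and 606 in BN nicotine and saline. It was 1.24-fold lower in SHR (log2 -0.31, SE 0.082, limma adjusted p = 0.0132), with both SHR values under both BN values. The call was lost without the SHR saline, BN nicotine or BN saline array (limma adjusted p of 0.116, 0.171 and 0.181) and with quantile normalization (0.0689). The second Eif4b probe set, 1372124_at, had 293 and 270 in SHR against 325 and 322 in BN, a ratio of -0.20 (SE 0.096) that did not pass (adjusted p = 0.159 with limma). Eif4h, a related helper, had -0.16 and Eif4a1, the main helicase, had -0.15. The scaffold genes did not pass. Eif4g1 (1388322_at) had 376 and 417 in SHR against 323 and 349 in BN, a ratio of 0.24 (SE 0.089, adjusted p = 0.0745 with limma). The dimmer Eif4g1 probe set, 1390340_a_at, was not tested, and its SHR over BN log2 ratio was 0.20 under nicotine and -0.64 under saline. Eif4g2, which encodes the scaffold DAP5 that lacks the eIF4E site, had 0.21 and 0.16 on its 2 probe sets, with adjusted p of 0.0822 and 0.0930 in limma. Eif4e2, a cap-binding repressor, had the highest ratio of the group at 0.27 (SE 0.14), and the cap-binding protein gene Eif4e (1398799_at) had -0.017 (SE 0.081). Eif4a2 and the exon junction helicase gene Eif4a3 had -0.0085 and -0.029.

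In elongation, 2 of the 6 eEF1 probe sets tested were called lower in SHR, where 9.42% of all probe sets tested were. Each of these calls was lost in some alternatives, as given below. Eef1b2, the subunit that reloads eEF1A with GTP, had 1171 and 1129 in SHR nicotine and saline, against 1348 and 1417 in BN nicotine and saline, 1.2-fold lower in SHR (log2 -0.27, SE 0.069, limma adjusted p = 0.0109). The strains did not overlap, but the call was lost when any 1 array was left out, with limma adjusted p from 0.0517 to 0.162. Eef1d, another exchange subunit, had -0.17 (SE 0.080) and Eef1g, the structural subunit, had 0.11 (SE 0.069), and neither passed. Eef1e1, whose product sits in the tRNA synthetase complex, had 281 and 226 in SHR against 214 and 207 in BN, the highest ratio of the group at 0.26 (SE 0.11, adjusted p = 0.115 with limma). Eef2, the translocation factor, had 1917 and 1837 in SHR nicotine and saline, against 2064 and 1948 in BN nicotine and saline, a ratio of -0.096 (SE 0.064). Its kinase gene Eef2k was read by 4 probe sets that all stayed at or below 27.7, under the floor.

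The 2 probe sets of Eef1a1, the gene of eEF1A, disagreed. Probe set 1388110_at had 3788 in SHR nicotine and 5381 in SHR saline, against 5883 in BN nicotine and 5931 in BN saline, and passed as lower in SHR (log2 -0.39, SE 0.085, limma adjusted p = 0.00327). Only the SHR nicotine array was far below the others. Without it the log2 ratio was -0.13 and the limma adjusted p 0.188, and the call was also lost without the BN nicotine or the BN saline array (both 0.306), with quantile normalization (0.0606) and with strain as the only factor (0.0955). Probe set 1370109_s_at had 5046 and 4774 in SHR nicotine and saline, against 4874 and 5483 in BN nicotine and saline, with a ratio of -0.075 (SE 0.068, adjusted p = 0.496 with limma), and its values overlapped between strains. Eef1a1 has many processed copies in mammalian genomes and a close relative, Eef1a2, so each probe set may also read other sequences. Eef1a2, the form of muscle and neurons, stayed at 44.5 to 65.2 and was not measured, as were the muscle markers Ckm, Acta1 and Myh4. The genes of eEF1A methyltransferases, Eef1akmt1 and Eef1akmt4, were not measured either.

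Of the 4 probe sets with several symbols, 2 were called lower in SHR, where 9.42% of all probe sets tested were. Probe set 1398845_at, annotated to a gene and a pseudogene, had 707 and 736 in SHR nicotine and saline, against 971 and 874 in BN nicotine and saline (log2 -0.35, SE 0.076, adjusted p = 0.00288 with limma). It was no longer called without the SHR nicotine, SHR saline or BN nicotine array, with limma adjusted p from 0.0546 to 0.136. Probe set 1398846_at carries the same annotation but ran the other way, with 619 and 603 in SHR nicotine and saline, against 580 and 565 in BN nicotine and saline (log2 0.094, SE 0.077, adjusted p = 0.445 with limma). The third probe set of this annotation, 1388206_a_at, had 334 and 347 in SHR nicotine and saline, against 339 and 387 in BN nicotine and saline (log2 -0.089, SE 0.091, adjusted p = 0.555 with limma). Of the 3, only 1398845_at passed. Probe set 1371973_at, the one annotated to 2 eIF3 symbols, had 627 and 593 in SHR nicotine and saline, against 774 and 770 in BN nicotine and saline (log2 -0.34, SE 0.075, adjusted p = 0.00344 with limma). That call was lost without the SHR saline, BN nicotine or BN saline array, with limma adjusted p from 0.0507 to 0.0987. The remaining genes, Eif5a, whose hypusine-bearing product helps the ribosome through difficult stretches, and Eif6, which keeps the large subunit from joining early, had ratios of -0.064 and 0.042.

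**Figure D2:**
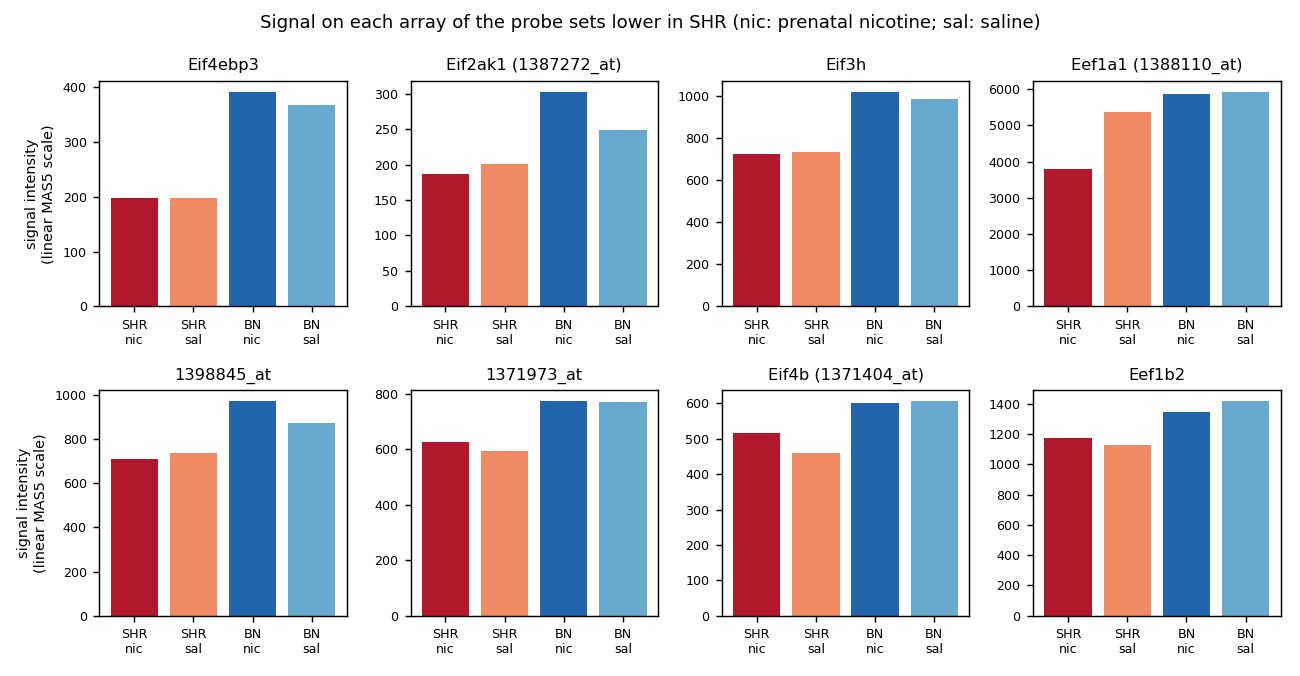
Signal intensity (linear MAS5 scale, bars from 0) on each of the 4 arrays for the 8 probe sets lower in SHR, with SHR in red tones and BN in blue tones. In Eif4ebp3 and Eif3h the arrays of a strain are close together, and in Eef1a1 probe set 1388110_at the SHR nicotine array stands alone at 3788.

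The start regions of the called genes are shown because pyrimidine-rich first bases are a known feature of mRNAs for the translation machinery. Of the 56 member genes, 51 had a start region in the RefSeq-derived table of build GRCr8, which is a BN genome, with 250 bases before and 50 bases after each annotated start and 54 regions in all. Eif3h and Eif4b were not among them. The letters CTTTT and CTTTC, which can overlap only by an end base, were searched from 20 bases before to 50 bases after the start. On the strand that reads as the mRNA, 11 of the 54 regions held 1 of them, 20.4%, against 15.9% of all 33469 regions. On the opposite strand 3 did, 5.56%, against 15.9% of all. The regions lie at chr18:28540074-28540373 on the plus strand (Eif4ebp3), chr12:15858115-15858414 on the minus strand (Eif2ak1), chr9:72073841-72074140 on the plus strand (Eef1b2), chr8:88225020-88225319 on the minus strand (Eef1a1) and chrX:62933650-62933949 on the minus strand (Eif2s3, shown for its nicotine ratios). They read 5′ to 3′ on the strand that reads as the mRNA, the capitals mark matches in that window, and the last 50 bases follow the start.
Eif4ebp3: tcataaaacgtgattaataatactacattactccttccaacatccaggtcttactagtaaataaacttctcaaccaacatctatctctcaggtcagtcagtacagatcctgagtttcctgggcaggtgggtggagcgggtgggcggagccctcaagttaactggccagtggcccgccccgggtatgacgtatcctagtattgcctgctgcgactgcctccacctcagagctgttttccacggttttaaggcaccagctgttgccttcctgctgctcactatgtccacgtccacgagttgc
Eif2ak1: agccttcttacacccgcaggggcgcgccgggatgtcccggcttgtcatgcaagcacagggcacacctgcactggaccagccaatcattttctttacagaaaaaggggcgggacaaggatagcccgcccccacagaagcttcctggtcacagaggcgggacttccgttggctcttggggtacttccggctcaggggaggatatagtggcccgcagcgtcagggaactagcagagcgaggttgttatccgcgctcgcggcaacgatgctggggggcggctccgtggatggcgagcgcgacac
Eef1b2: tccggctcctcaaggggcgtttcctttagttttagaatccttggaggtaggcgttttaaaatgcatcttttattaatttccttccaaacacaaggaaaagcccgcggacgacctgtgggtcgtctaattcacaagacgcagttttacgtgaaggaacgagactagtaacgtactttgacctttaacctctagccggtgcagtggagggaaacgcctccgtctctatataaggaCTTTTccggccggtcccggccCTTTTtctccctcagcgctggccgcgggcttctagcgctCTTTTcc
Eef1a1: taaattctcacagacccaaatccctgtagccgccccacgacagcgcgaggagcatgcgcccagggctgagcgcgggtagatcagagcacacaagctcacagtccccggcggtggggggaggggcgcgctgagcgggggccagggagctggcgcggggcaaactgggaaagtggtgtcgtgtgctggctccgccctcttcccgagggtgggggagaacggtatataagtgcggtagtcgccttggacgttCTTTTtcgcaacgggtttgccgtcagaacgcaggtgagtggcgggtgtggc
Eif2s3: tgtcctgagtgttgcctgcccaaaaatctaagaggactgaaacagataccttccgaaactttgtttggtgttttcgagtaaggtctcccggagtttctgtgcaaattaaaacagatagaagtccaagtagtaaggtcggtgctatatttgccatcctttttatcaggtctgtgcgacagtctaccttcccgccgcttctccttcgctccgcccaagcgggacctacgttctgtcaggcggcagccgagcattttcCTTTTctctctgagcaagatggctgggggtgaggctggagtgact
Eef1b2 held 3 matches, Eef1a1 and Eif2s3 held 1 each, and Eif4ebp3 and Eif2ak1 held 0 in this window. A match is only a run of letters, so nothing about regulation follows from it.

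Prenatal nicotine was then set against saline, averaged over strains. No factor gene changed by that test. In limma, 0 of 56 member probe sets passed over all 6924 tested, where 0% of all passed, and 1 member had an unadjusted p under 0.05, against 5.43% of all. That 1 was Eef1a1 probe set 1388110_at (log2 -0.26, unadjusted p = 0.00971, adjusted p = 0.622), whose ratio was carried by the SHR pools, as given below. In 55 of the 56 the average was within 1.2-fold. The ratios had an SD of 0.094 on the log2 scale, against 0.14 for all probe sets, and a median of 0.024 against 0.0010.

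Within a strain there is 1 pool on each side, so ratios are described with no test. In SHR, 1 of 54 measured members was at least 1.5-fold apart, where 1.98% of all measured probe sets were (1.07% higher, 0.904% lower). It was Eif4g1 probe set 1390340_a_at, at 97.8 in SHR nicotine against 59.4 in SHR saline, 1.65-fold higher, and at 85.2 in BN nicotine against 92.7 in BN saline. SHR saline gave its lowest reading and the other 3 arrays lay close together. The brighter Eif4g1 probe set 1388322_at read the other way in SHR, at 376 in SHR nicotine against 417 in SHR saline. Next in size was Eef1a1 probe set 1388110_at, with a log2 ratio of -0.51 in SHR and -0.012 in BN, while 1370109_s_at had 0.080 in SHR and -0.17 in BN. In SHR the probe sets of Eif4g1, and those of Eef1a1, thus ran in opposite directions. Eif5b, the GTPase that joins the subunits, had 89.0 in SHR nicotine against 118 in SHR saline, and 125 in BN nicotine against 112 in BN saline. Eef1e1 had a log2 ratio of 0.32 in SHR and 0.048 in BN, Eif3i had -0.22 and -0.0039, and Eif3m had 0.15 and 0.14. Below the level for measured, Eif2ak3 read 55.2 in SHR nicotine against 83.8 in SHR saline, and 76.8 in BN nicotine against 76.5 in BN saline.

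In BN, 0 of 56 measured members reached 1.5-fold, where 1.63% of all measured probe sets did (0.735% higher, 0.894% lower), and 54 of the 56 were within 1.2-fold. The highest ratio belonged to Eif2s3, whose X-linked gene encodes the GTP-binding subunit of eIF2. Eif2s3 had 179 in SHR nicotine against 240 in SHR saline, 1.34-fold lower, and 240 in BN nicotine against 176 in BN saline, 1.37-fold higher. The SHR nicotine and BN saline pools were about equal, as were the SHR saline and BN nicotine pools, so the average of both strains was near zero (log2 0.015). Its partners had smaller ratios of the same signs: the SHR ratio (log2) was -0.089 for Eif2s1 and -0.037 for Eif2s2, and the BN ratio 0.10 and 0.076. The partners' ratios lay within 1 SD of all probe sets measured in both strains, 0.20 in SHR and 0.18 in BN, so their signs carry little weight. None of these differences between strains was tested, and Eif2s3 rests on 1 probe set. Next in BN were Eif2ak1 probe set 1387272_at at 0.28 (-0.10 in SHR), Eif2d at -0.25 (-0.038 in SHR) and Eif2b1 at 0.25 (0.17 in SHR). Eif4enif1 crossed in the other sense, at 178 in SHR nicotine against 134 in SHR saline and at 147 in BN nicotine against 173 in BN saline. Within eIF3 the BN ratios ran from -0.21 for Eif3c to 0.24 for Eif3k, which had -0.12 in SHR, and within eEF1 Eef1d stood highest at 0.21. Among the cap factors the BN ratios reached 0.12 for Eif4g2 (1388359_at), and the SHR ratios reached -0.15 for Eif4e at their low end. Eif4ebp3, the gene with the largest strain difference, stayed near its saline level in both strains, at -0.0047 in SHR and 0.091 in BN. The lowest ratios of the cap inhibitors in SHR and of eIF2B in BN were -0.14 for Eif4ebp2 and -0.086 for Eif2b4. Eef2 had 0.062 in SHR and 0.084 in BN, Eif5a had -0.068 and 0.097, and Eif6 had 0.063 and -0.026.

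**Figure D3:**
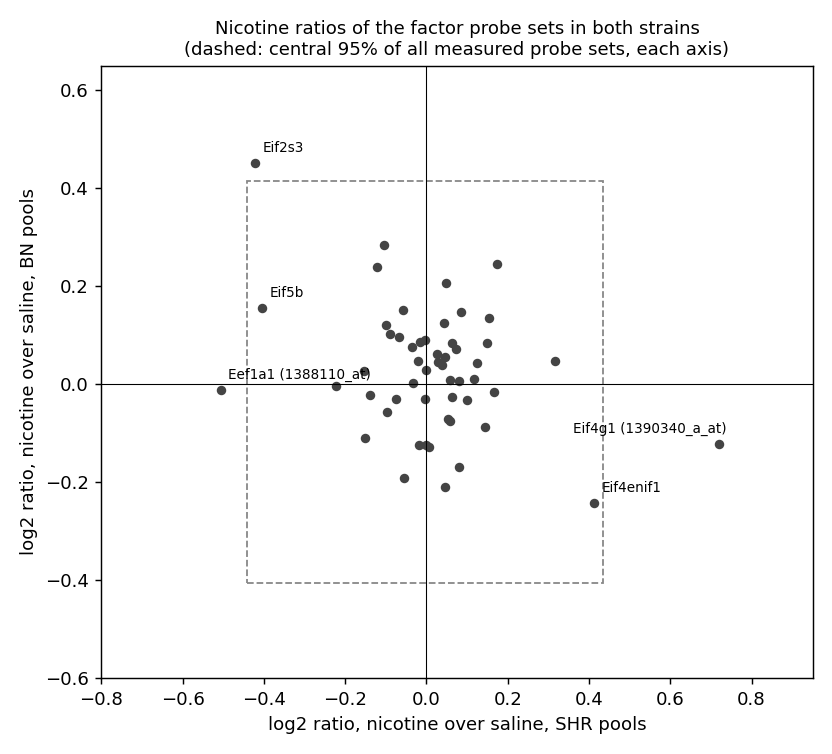
Log2 ratio of signal, nicotine over saline, in the SHR pools (x axis) and the BN pools (y axis) for the 53 factor probe sets measured in both; the dashed box spans the central 95% of all measured probe sets on each axis. Outside it lie Eif2s3, Eef1a1 probe set 1388110_at and Eif4g1 probe set 1390340_a_at. Inside it but away from zero lie Eif4enif1 (0.41 in SHR, -0.24 in BN) and Eif5b (-0.40 in SHR, 0.16 in BN). Most other points crowd round zero.

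Over the 53 members measured in both strains, the SHR and BN nicotine ratios, which share no array, had the same direction in 27 and opposite directions in 26. Their Pearson correlation was -0.34 and their Spearman correlation -0.17, against -0.025 and -0.039 over all 6608 probe sets measured in both. Probe sets on the same 4 arrays are not independent. Opposite ratios that exceeded 1 SD of all probe sets in each strain were seen in 2 members, Eif2s3 and Eif4enif1, 3.77%, against 4.68% of all.

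**Figure D4:**
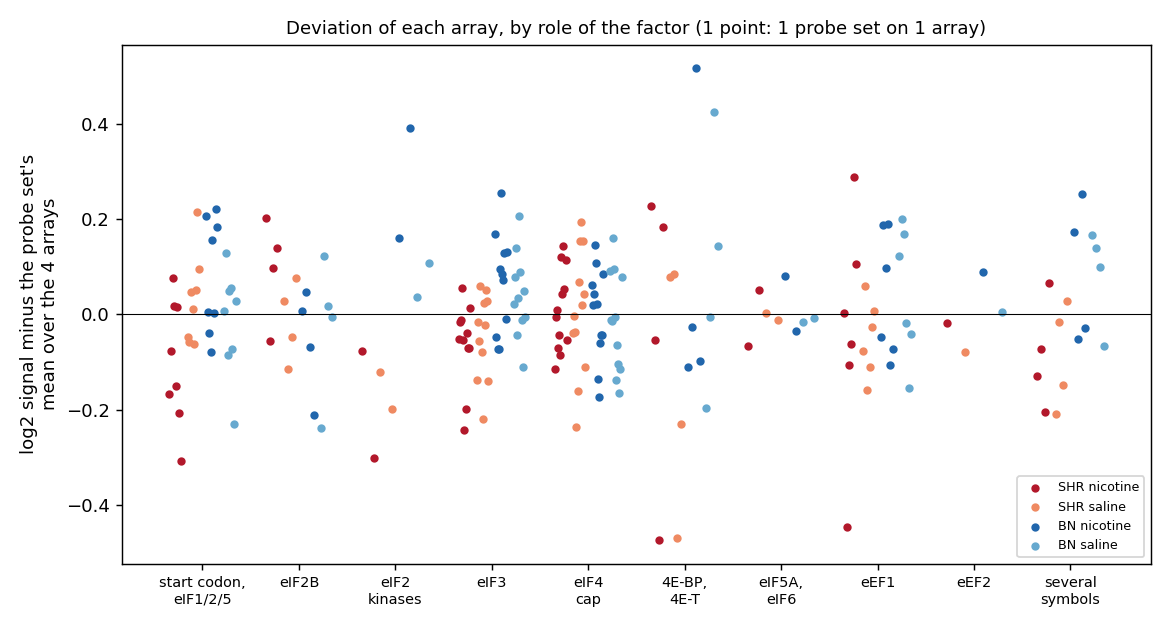
Log2 signal on each array minus the mean of the 4 arrays (y axis) for the 54 factor probe sets tested for strain, grouped by role (x axis), in the order SHR nicotine, SHR saline, BN nicotine, BN saline within a role. Most points lie within 0.2 of zero, and the points beyond 0.4 in size belong to Eif4ebp3 and to Eef1a1 probe set 1388110_at.

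Genes that work next to these factors were read from 5 lists. Over all 7037 probe sets tested for strain, 18.1% passed in limma, 9.42% lower and 8.67% higher in SHR. In each list the share called in either direction was below that 18.1%. Of 17 probe sets for release, recycling, poly(A) binding and start helpers, 2 were lower in SHR and 0 higher at an adjusted p under 0.05 in limma. They were Paip1 (1379272_at), a partner of poly(A)-binding protein, at 108 and 108 in SHR nicotine and saline against 159 and 231 in BN nicotine and saline, and Pdcd4, which blocks eIF4A, at 127 and 129 in SHR against 181 and 166 in BN. The second Paip1 probe set (1379335_at) had a ratio of -0.016, so the difference was not shared. Impact, whose product restrains the activation of GCN2, had -0.46 on its measured probe set and did not pass (limma adjusted p = 0.115). Dhx29 and Abce1 had the highest ratios, 0.30 and 0.29, and did not pass either.

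Of 8 probe sets of the response to eIF2 phosphorylation, 1 was higher, the chaperone gene Hspa5 at 1166 and 1156 in SHR nicotine and saline against 725 and 771 in BN nicotine and saline (log2 0.63, SE 0.071). Atf4, the transcription factor at the centre of that response, had 625 and 640 in SHR nicotine and saline, against 572 and 604 in BN nicotine and saline, a ratio of 0.11 (SE 0.077) that did not pass. Ddit3, which encodes CHOP, had 0.45 with an adjusted p of 0.0712 in limma, and Dnajc3 and Ppp1ca had the lowest ratios, -0.067 and -0.058. Asns, Trib3, Atf3 and Ppp1r15a of this list stayed below 89.0 on all 4 arrays. Arrays do not read the phosphorylation of eIF2 itself, so its state in either strain was not tested. Of 17 probe sets for mTOR and MNK control, Ddit4, which restrains mTOR, was higher at 0.59 (SE 0.15, limma adjusted p = 0.0113), and Mknk2, a kinase of eIF4E, was lower at -0.48 (SE 0.13, limma adjusted p = 0.0150). Rptor, the mTOR partner that binds 4E-BPs, followed Ddit4 at 0.35, and Rps6 followed Mknk2 at -0.18; neither passed. Of 18 probe sets for cytosolic tRNA synthetases and their scaffold proteins, Aars1 was higher at 606 and 603 in SHR against 380 and 411 in BN (log2 0.61, SE 0.082), as was Iars1 at 0.52, and the lowest were Aimp1 at -0.31 and Rars1 at -0.29. Of 4 mitochondrial factor probe sets 0 passed in limma (1 at an unadjusted p under 0.05), with Mtfmt at -0.42, Mrrf at -0.12, Tufm at -0.052 and Gfm1 at 0.14. The lists' median strain ratios ran from -0.087 to 0.11, and 0 of their probe sets passed for nicotine in limma (at most 1 in any list at an unadjusted p under 0.05).

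Some sample features moved with strain beside these results. Beta-actin, read at both ends of its mRNA, gave a 3′ over 5′ ratio of 1.34 and 1.39 in SHR against 1.49 and 1.54 in BN, a ratio that rises as RNA breaks. Gapdh gave 1.11 and 1.0 in SHR against 1.09 and 1.07 in BN. Of 9 proximal tubule probe sets, 5 were called higher in SHR and 1, that of Cubn (log2 -0.57), was called lower. Their median log2 ratio was 0.29. Over all probe sets tested, 8.67% were called higher and 9.42% lower. Of 7 immune genes 3 were tested and 2 were higher, Lyz2 (log2 0.77) and Fcer1g (0.36). Cd74, also tested, had 0.21 and did not pass (limma adjusted p = 0.0501). Laptm5, too dim for the strain test, read 82.3 and 71.5 in SHR nicotine and saline, against 94.9 and 75.4 in BN nicotine and saline. Cd68 was not measured, at 53.7 and 47.8 in SHR against 10.6 and 15.8 in BN. Ptprc and Cd3e were under the floor. Markers of other segments moved too, in both directions. In the thick ascending limb Slc12a1 was lower in SHR (log2 -0.76) and Umod higher (0.37). Of 4 collecting duct probe sets, Aqp2 (-0.41) and Aqp3 (-0.30) were lower and 1 of Slc4a1 (0.42) was higher. Slc12a3 of the distal tubule (-0.32), Podxl of podocytes (-0.55) and Lpl of adipocytes (-0.63) were lower, and Kdr of endothelium (0.32) was higher. Other markers of these types did not pass: Calb1 of the distal tubule (0.032), Thrsp of adipocytes (0.21) and Pecam1 of endothelium (-0.19). Nphs1 of podocytes, too dim for the strain test, read 83.8 and 90.6 in SHR nicotine and saline, against 86.4 and 90.7 in BN nicotine and saline. Of 3 smooth muscle and stroma probe sets 0 passed in limma (0 also at an unadjusted p under 0.05). The part of these features in the strain differences of the factors was not tested.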

How the data were processed

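Kidney RNA pools of 4 groups were measured on 1 Affymetrix array each. The deposited values are signal intensity on a linear scale, made by the authors with MAS5 (named in the submitters' processing notes, without a version). All 4 arrays shared a trimmed mean of 150.04, so the values were already scaled when deposited. Arrays hold no counts, and their number limits the precision.

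From these, 57 control probe sets were left out of 15923. Values under the floor of 44.5, the 40th percentile, were raised to it and log2 was taken. limma 3.58.1 (R 4.3.3) fitted strain and treatment additively to each probe set, with lmFit and eBayes with an intensity trend. A probe set entered if the higher group mean reached 89.0. One residual degree of freedom holds array noise and any nicotine response that differs between strains, and 16.5 and 14.0 prior degrees of freedom were borrowed for strain and nicotine. P-values thus reflect how these 4 pools vary and say nothing of single rats. The fit was tested on simulated data. Named were all called members, those past 1.5-fold for nicotine within a strain, Eif2s3, Eef1a1 and the ends of each role group; other members named were chosen after their values were seen. Members and lists were chosen with earlier results of these data known. Normalization, floor, filter, trend, 1 probe set per gene and each array left out were tried as alternatives. Symbols come from the platform annotation, and 5 member genes had no start region matched. Figures were drawn with matplotlib 3.10.9.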

Additional observations from a re-analysis of the deposited data

Results flagged for a closer look

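For 2 probe sets the nicotine ratio pointed in opposite directions in the strains, by more than 1 SD of all probe sets each time. Eif2s3 had a log2 ratio, nicotine over saline, of -0.422 in SHR and 0.452 in BN. Eif4enif1 had 0.413 in SHR and -0.242 in BN. Each ratio sets 1 pool against 1 pool, so the difference between strains was not tested, and opposite pairs of this size made up 4.68% of all probe sets measured in both strains.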

How the results depend on the processing

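Of the 12 alternatives to the strain fit, 1 (strain as the only factor with all 4 arrays, which called 7 members) was chosen after seeing the data. The strain calls among members, 8 in the fit reported, were all lower in SHR in every alternative, and each alternative's calls were among the 8. The count was 5 with quantile normalization, 2 without the intensity trend and 5 with 1 probe set per gene, where fewer probe sets were tested. It was 2 to 4 when 1 array was left out and strain was the only factor, which leaves fewer samples. Eif4ebp3 and Eif3h held in every alternative. The share of all probe sets called moved as well, to 10.6% with quantile normalization, 8.7% without the trend, 9.98% with the floor at the 20th percentile and 9.76% with no filter. In these last 2 settings, and without BN saline, members were called more often than all probe sets, and in the other 9 less often. The strain ratio of Eef1a1 probe set 1370109_s_at turned to 0.0099 without BN saline, over a range of -0.16 to 0.0099 when 1 array was left out. That of 1388206_a_at turned to 0.0069 without BN saline (range -0.18 to 0.0069). That of Eif2s3 turned to -0.20 without SHR saline and to -0.22 without BN saline (range -0.22 to 0.24). None of these was called.

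For nicotine averaged over strains, members called stayed at 0 in all 7 alternatives with a test (limma adjusted p at or above 0.0941). Of all probe sets, at most 0.323% were called in any of them, 12 of 3717 with the floor at the 60th percentile. So 0 members called is near the share of all and does not set the members apart. Leaving out an array leaves no residual degree of freedom for nicotine, so the value is then the other strain's ratio. For nicotine in SHR, members past 1.5-fold numbered 3 with the floor at the 20th percentile, 0 at the 60th and 2 with no filter, against 1 as reported. In BN 1 passed with the floor at the 20th percentile, against 0. For SHR against BN under saline, 5 passed at the 20th and 1 at the 60th percentile, against 2; under nicotine the 3 reported stayed at 3 or 4. With the floor at the 20th percentile 1 of those under nicotine and 2 of those under saline were higher in SHR, against 0 as reported. The floor and the filter also set how many probe sets count as measured. These counts were not set against the share of all probe sets in each setting, so they do not show whether members differ from the rest. The causes were not tested. No paired analysis was possible because each group has 1 array and the labels give no replicate numbers.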
